A study of Mus musculus with 12 samples.

Results

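The genes described here are the AP-1 transcription factors and other immediate early factors of mouse melanoma tumors. The set was chosen by name and holds 10 genes: the FOS family (Fos, Fosb, Fosl1 and Fosl2), the JUN family (Jun, Junb and Jund), the related factors Atf3 and Maff, and the zinc finger factor Egr1. All 10 were found among the 55487 gene identifiers of the count table, and all 10 were among the 16225 genes with enough counts to be tested. RNA sequencing was done on 12 tumors. The Arf6-null group had 6 tumors of the genotype BrafCA;Cdkn2af/f;Arf6f/f, and the wild-type group had 6 tumors of the genotype BrafCA;Cdkn2af/f. Both groups thus carry the BrafCA allele, which encodes an activated BRAF kinase after recombination, and floxed Cdkn2a, and wild type refers to Arf6 alone. The sources used here do not give the agent that recombines the floxed alleles, the age of the animals or whether each tumor came from a separate animal. The p-values therefore cover only the spread among these tumors, part of which may be technical. Replicate numbers are only names, given in the order of the labels within a genotype.

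AP-1 is a dimer of basic leucine zipper proteins, usually one FOS and one JUN protein. It binds short DNA motifs in promoters and enhancers and drives genes of proliferation, invasion and wound repair. Immediate early genes are transcribed within minutes of growth factor, stress or wounding signals without new protein synthesis, and in melanoma the BRAF, MEK and ERK kinase cascade is a known input. FOSL1 is known in melanoma for its link to dedifferentiated and invasive cells. Arf6 encodes a small GTPase of membrane traffic between the cell surface and endosomes.

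Library totals were 21007954 to 45688253 counts in Arf6-null tumors and 22211738 to 30326419 counts in wild-type tumors. Arf6 was at 12.2 to 22.5 CPM (the count divided by the scaled library total) in Arf6-null tumors, against 84.2 to 147 CPM in wild-type tumors, without overlap. Its log2 fold change was -2.60 (edgeR adjusted p = 0.000101). Of 10 markers of pigmented melanocytes, 3 had enough counts to test. The summed level of all 10 was 11.2 to 35.9 CPM in Arf6-null tumors and 22.6 to 52.9 CPM in wild-type tumors. Mlana had 0 counts in all 12 libraries, and Tyr, Tyrp1 and Dct had at most 2. Skeletal muscle markers were summed to 3342, 2351 and 4519 CPM in wild-type replicates 3, 4 and 5 and to at most 460.9 CPM in every other tumor. Library numbers 19 to 24 belonged to Arf6-null tumors and 1 to 6 to wild-type tumors, so genotype and library number cannot be told apart, and the labels do not say what the number stands for. Tumor numbers in the labels also followed genotype and were lower in wild-type tumors. The exception was wild-type replicate 5, whose tumor number was the highest of all. What the tumor numbers stand for is not given either.

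The promoters of Fosb, Junb, Fos and Fosl2 are shown because the levels of Junb, Fos and Fosl2 were each correlated with Fosb over the tumors by Pearson r, as described further on. Each window runs from 250 bases before the RefSeq transcription start to 50 bases from it on (RefSeq sequences, build GRCm38.p6, 5′ to 3′ on the strand of the gene). They lie at chr7:19309996-19310295 (- strand) for Fosb, chr8:84978699-84978998 (- strand) for Junb, chr12:85473640-85473939 (+ strand) for Fos and chr5:32136222-32136521 (+ strand) for Fosl2. Capitals mark TGACG, the core of the cyclic AMP response element, on either strand, and TATAAA, the TATA box.
Fosb: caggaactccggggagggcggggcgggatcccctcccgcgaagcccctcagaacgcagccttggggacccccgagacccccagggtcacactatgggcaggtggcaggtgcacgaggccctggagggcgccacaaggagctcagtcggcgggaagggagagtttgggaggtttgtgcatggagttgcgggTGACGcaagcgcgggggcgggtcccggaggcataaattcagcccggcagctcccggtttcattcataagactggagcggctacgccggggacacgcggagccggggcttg
Junb: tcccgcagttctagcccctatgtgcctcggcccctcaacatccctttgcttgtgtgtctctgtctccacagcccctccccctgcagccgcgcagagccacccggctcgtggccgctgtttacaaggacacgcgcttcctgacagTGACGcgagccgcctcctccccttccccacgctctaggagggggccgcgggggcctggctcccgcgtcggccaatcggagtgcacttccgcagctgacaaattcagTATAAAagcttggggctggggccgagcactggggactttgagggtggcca
Fos: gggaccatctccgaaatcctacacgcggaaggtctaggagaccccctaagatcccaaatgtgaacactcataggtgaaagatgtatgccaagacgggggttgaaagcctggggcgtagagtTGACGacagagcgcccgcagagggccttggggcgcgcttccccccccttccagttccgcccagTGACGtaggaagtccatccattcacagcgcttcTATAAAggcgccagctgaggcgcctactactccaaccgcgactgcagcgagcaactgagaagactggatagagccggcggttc
Fosl2: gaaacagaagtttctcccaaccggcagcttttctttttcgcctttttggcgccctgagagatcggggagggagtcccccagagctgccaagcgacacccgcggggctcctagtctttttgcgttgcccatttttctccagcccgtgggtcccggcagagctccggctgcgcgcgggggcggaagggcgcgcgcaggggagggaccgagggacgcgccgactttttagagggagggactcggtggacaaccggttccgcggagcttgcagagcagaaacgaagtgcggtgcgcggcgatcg

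Positions are counted from the transcription start. Fos had TGACG with its first base at -129 and at -66, and TATAAA at -33. The first base of TGACG lay at -60 in Fosb and at -106 in Junb, and Junb had TATAAA at position 1 of the RefSeq start. Fosl2 held no searched motif in its window. Of the 8 members whose windows were searched, Jun and Jund also had no exact match. The Jun window held TGACATCA, which differs from TGACGTCA in 1 letter. The Jund window ended at base 70697788, before the start of the Jund gene position used here (70698949), and did not cover that start. The Fosl2 and Atf3 windows did not cover the 5′ ends of their gene positions either (32135801 and 191218039). The same holds for the Maff window with TGACGTCA (gene start 79346621). For Junb the RefSeq start (84978748) lies upstream of the 5′ end of the gene position (84978718). Atf3 had the reverse strand of TGACG at -7, and Maff had the full response element TGACGTCA at -29 in 1 of its 3 windows. The motifs searched were TGACTCA (the AP-1 element), TGACGTCA, TGACG, the CArG box and TATAAA, each on both strands, and TGACG lies within TGACGTCA. TGACTCA was found in 5.2% of all 32851 windows, TGACGTCA in 1.79%, TGACG in 20.8%, the CArG box in 1.63% and TATAAA in 13.6%. A match is a run of letters and was not tested for binding.

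No member passed the test between genotypes. The edgeR quasi-likelihood test called 0 of the 10 members at an adjusted p under 0.05, against 1.15% of all tested genes, of which 0.586% were called higher and 0.561% lower in Arf6-null tumors. Without adjustment, p was under 0.05 for 2 of the 10 members, Fosl1 and Atf3, both higher, against 23.4% of all tested genes. DESeq2 called 1 member higher (Fosl1), where it called 4.8% of the genes with an adjusted p higher, and limma-voom called 0, where it called 2.98% higher. In data simulated with the spread of these genes, DESeq2 made more false calls than edgeR and limma-voom, which bears on all its calls below. The 2 genotypes overlapped in the CPM of each of the 10 members, whereas 2.36% of all tested genes did not overlap. Of the 10 log2 fold changes of Arf6-null over wild type, 9 were positive, with a median of 0.50, beside a median of -0.03 over all tested genes. The members were chosen with earlier results of these data known, so this count and median are a description. In bulk RNA, fewer cells of a type and less RNA per cell cannot be told apart.

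**Figure D1:**
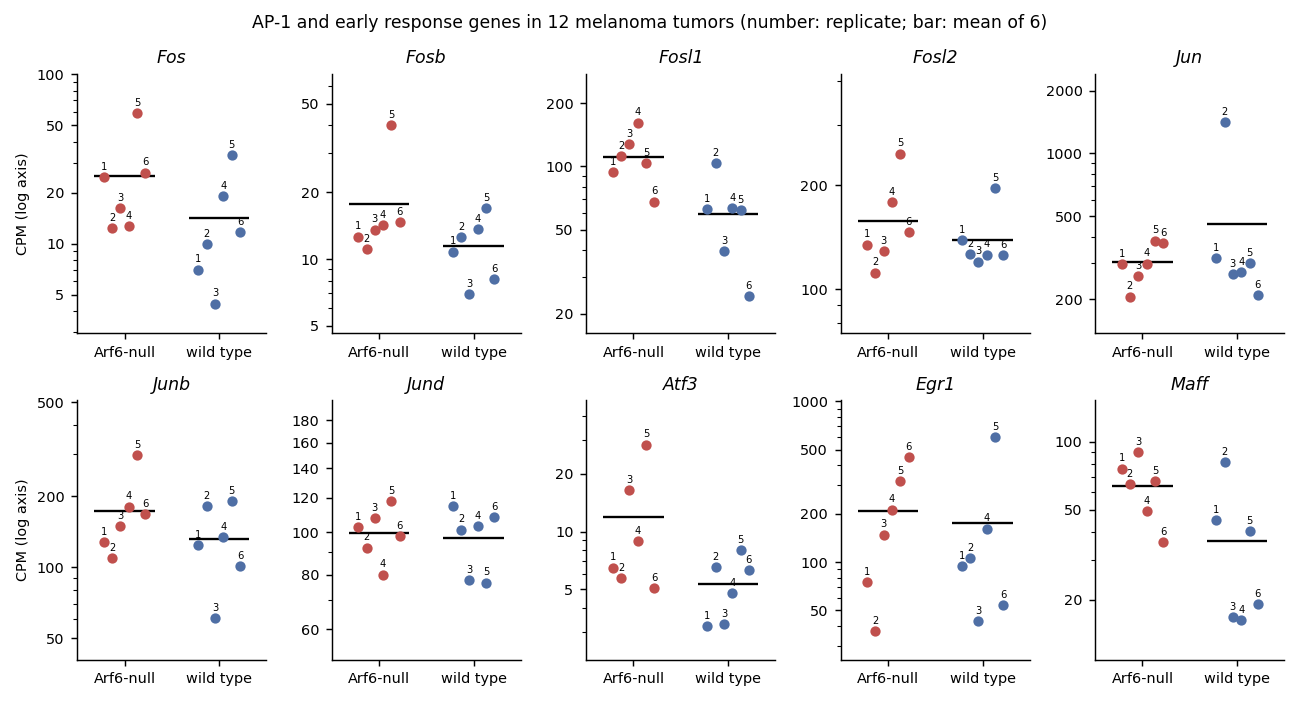
CPM (vertical, log axis) of the 10 genes in each of the 12 tumors, with Arf6-null tumors at left and wild-type tumors at right of each panel, the replicate number above each point and a bar at the mean of 6. The genotypes overlap in every panel, and Jun in wild-type replicate 2 (1412 CPM) lies far above the other 11 tumors.

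Fosl1 had the smallest p of the members. The gene (chr19:5447547-5455946 of GRCm38, the build of all gene positions here) encodes FRA-1, a FOS family protein without the transactivation domain of FOS that is stabilized by ERK. Its level was 68.1, 108 and 162 CPM (lowest, median and highest) in Arf6-null tumors, against 24.2, 62.5 and 103.4 CPM in wild-type tumors. Of the 6 Arf6-null tumors, 4 lay above the highest wild-type tumor, and none lay below the lowest. The means were 111.1 ± 31.7 CPM in Arf6-null and 59.3 ± 26.9 CPM in wild-type tumors (SD, n = 6 each), a ratio of 1.87. On the log2 scale the difference was 0.91 (SE 0.31, 95% interval 0.31 to 1.51), and the edgeR adjusted p over all genes was 0.113, which does not pass. Over 22 other settings the adjusted p ran from 0.0474 to 0.467. It passed in 2 of them, with DESeq2 (log2 fold change 0.91, adjusted p = 0.0484) and in the edgeR fit without wild-type replicate 2 (1.14, adjusted p = 0.0474), the wild-type tumor with the highest Fosl1 level. Without that tumor 2.38% of all tested genes were called higher.

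Other measures moved beside Fosl1, and their part in its difference was not tested. The summed level of 11 fibroblast markers was 2319 to 16060 CPM in Arf6-null tumors and 6705 to 23860 CPM in wild-type tumors. The Fosl1 fold change was 0.82 (adjusted p = 0.395) without the 3 muscle-rich wild-type tumors, 0.71 (adjusted p = 0.467) with a muscle covariate and 0.61 (adjusted p = 0.253) with Y-linked expression as a covariate. Far fewer genes were called over all genes in these fits as well, with the counts given in the closing section on processing. Of the 2033 exon bases of Fosl1, 1163 are shared with exons of Ccdc85b on the other strand. With no strand setting of the counter known here, reads of the pair cannot be told apart. Ccdc85b itself had a log2 fold change of -0.12 (edgeR adjusted p = 0.635).

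Fos (chr12:85473890-85477273) encodes the founding member of the family, a protein that needs a JUN partner to bind DNA and whose mRNA is short-lived. It was at 12.3, 20.4 and 59.0 CPM in Arf6-null tumors, against 4.43, 10.8 and 33.2 CPM in wild-type tumors (lowest, median and highest). The mean was 25.2 ± 17.6 CPM in Arf6-null and 14.3 ± 10.6 CPM in wild-type tumors, a log2 difference of 0.82 (SE 0.52) with an edgeR adjusted p = 0.359. Single tumors set much of this value. The fold change was 0.37 without Arf6-null replicate 5 and 1.27 without wild-type replicate 5, the highest tumor of each genotype, with adjusted p of 0.67 and 0.137 in a range of 0.137 to 0.67 over 22 settings.

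Fosb (chr7:19302696-19310051), which encodes a FOS relative known for long-lived splice forms in brain, was at 11.1, 13.9 and 40.0 CPM in Arf6-null tumors, against 6.95, 11.7 and 16.9 CPM in wild-type tumors. Among Arf6-null tumors, 5 lay between 11.1 and 14.6 CPM, within the wild-type range, and replicate 5 alone was higher. This gave a log2 fold change of 0.62 with SE 0.34 (edgeR adjusted p = 0.286), and 0.20 without Arf6-null replicate 5 (adjusted p = 0.615, range 0.205 to 0.615 over 22 settings). Fosl2 (chr5:32135801-32157842) encodes FRA-2, a relative of FRA-1 with a role in bone and cartilage cells. It had a smaller difference, at 111.9, 140.6 and 247.1 CPM in Arf6-null tumors, against 120.4, 126.4 and 196.8 CPM in wild-type tumors. For Fosl2 the log2 fold change was 0.18 with SE 0.19 (edgeR adjusted p = 0.6). Without Arf6-null replicate 5 the Fosl2 fold change was 0.01.

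The JUN family showed no called difference either. Jun (chr4:95049034-95052222) encodes the c-JUN subunit, phosphorylated by JNK kinases, which can pair with itself or with FOS and ATF proteins. Jun was at 206.3, 295.5 and 382.1 CPM in Arf6-null tumors, against 210.0, 284.4 and 1412 CPM in wild-type tumors. The medians differed little, and all tumors but wild-type replicate 2 lay between 206.3 and 382.1 CPM. Its log2 fold change of -0.61 with SE 0.45 (edgeR adjusted p = 0.432) was thus set by 1 tumor: without wild-type replicate 2 it was 0.15 (adjusted p = 0.602, range 0.237 to 0.761 over the settings that gave one). DESeq2 gave Jun no adjusted p.

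Junb (chr8:84974484-84978718) encodes a JUN protein that is a weaker activator than c-JUN and can oppose it. It was at 109.4, 158.7 and 299 CPM in Arf6-null tumors, against 60.7, 129 and 190.7 CPM in wild-type tumors. For Junb the log2 fold change was 0.39 (SE 0.29, 95% interval -0.19 to 0.96, edgeR adjusted p = 0.456), and 0.16 without Arf6-null replicate 5. Jund (chr8:70698949-70700616), the JUN gene with the steadiest expression in many cell types, was at 80.0, 100.3 and 117.6 CPM in Arf6-null tumors, against 76.8, 102.3 and 114.7 CPM in wild-type tumors. Its log2 fold change was 0.04 with a 95% interval of -0.21 to 0.29 (SE 0.13, edgeR adjusted p = 0.879), the narrowest interval of the 10 members. The sign of the Jund value turned in 7 of 22 settings, upper-quartile scaling (-0.01) among them. On the other strand Junb shares 173 exon bases with Prdx2, Jund 877 with Gm11175 and Jun 232 with Junos. Prdx2 was at 543 CPM on average in Arf6-null and 383 CPM in wild-type tumors (log2 fold change 0.50, edgeR adjusted p = 0.0719).

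Atf3 (chr1:191170296-191218039) encodes a stress-induced factor that pairs with JUN proteins and often represses. It had the largest fold change of the members and low levels, at 5.10, 7.71 and 28.4 CPM in Arf6-null tumors, against 3.22, 5.54 and 7.99 CPM in wild-type tumors. Of the Arf6-null tumors, 3 lay above all wild-type tumors and 3 within their range. Atf3 thus had a log2 fold change of 1.15 (SE 0.45, 95% interval 0.27 to 2.02, unadjusted p = 0.0244 and edgeR adjusted p = 0.155). It was 0.67 without Arf6-null replicate 5 (adjusted p = 0.285), and the adjusted p ran from 0.0759 to 0.434 over 21 settings. A filter of 10 CPM in 6 libraries removed Atf3.

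Maff (chr15:79346621-79359076) encodes a small MAF protein, which has no transactivation domain and pairs with larger leucine zipper partners. Its level was 36.0, 66.0 and 89.7 CPM in Arf6-null tumors, against 16.3, 29.6 and 81.2 CPM in wild-type tumors. The wild-type tumors spread widely, with replicates 3, 4 and 6 between 16.3 and 19.1 CPM and replicate 2 at 81.2 CPM. Maff had a log2 fold change of 0.81 (SE 0.40, 95% interval 0.02 to 1.596, edgeR adjusted p = 0.244). This interval is a normal approximation and narrower than the test allows, since the unadjusted p of Maff was 0.0661. It was 1.22 without wild-type replicate 2 (adjusted p = 0.0582), 0.41 without the 3 muscle-rich wild-type tumors (adjusted p = 0.683) and 0.17 with a muscle covariate (adjusted p = 0.9), and these adjusted p span the range over 22 settings. Wild-type replicates 3 and 4, both muscle-rich, had the lowest Maff levels, while the third muscle-rich tumor, replicate 5, was at 40.2 CPM, and the part of muscle in this difference was not tested.

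Egr1 (chr18:34859823-34864984) encodes a zinc finger factor outside AP-1 that the same growth signals induce, through the ternary complex factors and SRF. Its level ran from 37.0 to 452 CPM in Arf6-null tumors with a median of 180.0, against 43.1 to 595.6 CPM in wild-type tumors with a median of 99.8. The highest tumor exceeded the lowest 12.2-fold among Arf6-null and 13.8-fold among wild-type tumors, the widest such ratio of the 10 members in each genotype. Egr1 had a log2 fold change of 0.24 with a 95% interval of -1.16 to 1.64 (SE 0.71, edgeR adjusted p = 0.868). It was 1.18 without wild-type replicate 5 (adjusted p = 0.241) and -0.15 without Arf6-null replicate 6 (adjusted p = 0.92, in a range of 0.241 to 0.984 over 22 settings), the highest tumor of each genotype, so the direction rested on single tumors.

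**Figure D2:**
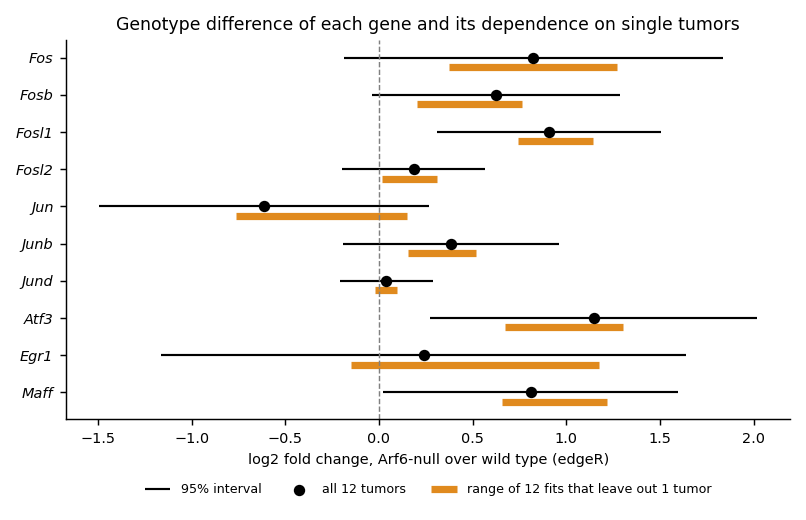
Log2 fold change of Arf6-null over wild type by edgeR (horizontal) for the 10 genes, with the 12-tumor value as a point, the 95% interval as a black line and the range of the 12 fits that leave out 1 tumor as an orange bar. The intervals of Fosl1 and Atf3 lie above 0 before adjustment, that of Maff starts at 0.02 although its unadjusted p is 0.0661, and the orange bars of Jun, Jund and Egr1 cross 0.

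Exon length here is the union of all annotated exons of a gene, which can be longer than a single transcript. Divided by this length, so that genes can be compared, JUN transcripts were the most abundant of the set in both genotypes. On this scale (CPM per kilobase of exon) Jun averaged 94.6 ± 21.1 in Arf6-null and 144.8 ± 146 in wild-type tumors. Junb was at 74.85 ± 29.2 and Jund at 59.8 ± 7.77 in Arf6-null tumors, against 57.3 ± 21.3 and 58.2 ± 9.60 in wild-type tumors. Fosl1 at 54.6 ± 15.6, Egr1 at 46.2 ± 34.9, Maff at 24.6 ± 7.35, Fosl2 at 16.3 ± 5.06, Fos at 10.7 ± 7.48, Atf3 at 5.499 ± 4.23 and Fosb at 2.83 ± 1.76 followed in Arf6-null tumors. In wild-type tumors Egr1 (39.2 ± 46.8) came before Fosl1 (29.15 ± 13.2) and Fosl2 (14.4 ± 2.99) before Maff (14.04 ± 9.73), ahead of Fos (6.06 ± 4.49), Atf3 (2.485 ± 0.892) and Fosb (1.84 ± 0.588). In both orders each gene overlapped in range with the next, and the means of neighbours differed by less than their summed SDs.

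Within the FOS family Fosl1 held the largest share of transcripts per exon length in nearly all tumors, with the limit that its exons overlap those of Ccdc85b. Its share was 47.2% to 75.2% with a mean of 64.7% in Arf6-null tumors, against 38.1% to 72.5% with a mean of 55.1% in wild-type tumors. In wild-type replicate 6 Fosl2 had the larger share, at 41.6%. Fosl2 held 15.6% to 24.3% in Arf6-null tumors and 18.7% to 41.6% in wild-type tumors, Fos averaged 12.7% and 11.5%, and Fosb averaged 3.27% in Arf6-null and 3.62% in wild-type tumors. The family summed to 84.5 ± 18.8 CPM per kilobase in Arf6-null and 51.4 ± 16.2 in wild-type tumors. Without division by length Fosl2, whose exons span 9680 bases against 2033 for Fosl1, became the largest, at 50.3% in Arf6-null and 63.0% in wild-type tumors. Shares within the JUN family averaged 41.3% for Jun, 31.9% for Junb and 26.8% for Jund in Arf6-null tumors, against 49.2%, 24.3% and 26.6% in wild-type tumors, where Jun reached 76.0% in replicate 2.

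**Figure D3:**
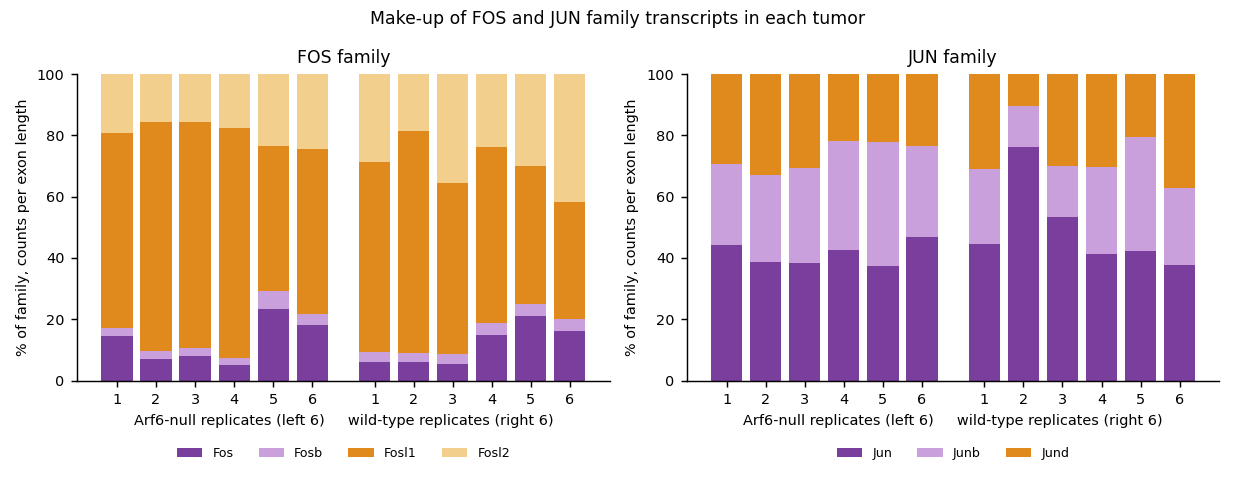
Share of each gene in the summed counts per exon length of its family (vertical, percent), for the FOS family at left and the JUN family at right, with 1 bar per tumor, Arf6-null tumors at the left and wild-type tumors at the right of each panel. Fosl1 takes the largest FOS share in all tumors but wild-type replicate 6, and Jun takes 76.0% of the JUN family in wild-type replicate 2.

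Several members were highest, or lowest, in the same tumor of a genotype. Arf6-null replicate 5 was the highest Arf6-null tumor in 7 members (Fos, Fosb, Fosl2, Jun, Junb, Jund and Atf3), and replicate 2 was the lowest in 6. Wild-type replicate 5 was the highest wild-type tumor in 6 members (Fos, Fosb, Fosl2, Junb, Atf3 and Egr1), and replicate 3 was the lowest in 5. Fosl1, Jun and Maff were instead highest in replicate 2 among wild-type tumors. Jund was highest in wild-type replicate 1 and lowest in wild-type replicate 5, the tumor in which those 6 members were highest. The tumors with high early genes differed in other measures as well, whose part was not tested. Summed neutrophil markers were highest in replicate 5 of each genotype, at 531.3 CPM in Arf6-null (others 47.7 to 198.2) and 182.9 CPM in wild-type tumors (others 17.1 to 164.4). This sum leans on Lcn2, which reached 17292 counts in a library, whereas no other marker of the list passed 1984. As a mean log2 CPM of the 8 tested neutrophil markers, Arf6-null replicate 5 was at 4.01, close to Arf6-null replicate 3 at 3.90. Summed macrophage markers were 4875 CPM in wild-type replicate 5, the highest, and 1567 CPM in wild-type replicate 3, the lowest of the 12 tumors, but 2032 CPM in Arf6-null replicate 5, in a range of 1981 to 3140 CPM over Arf6-null tumors. Arf6-null replicate 5 was also the deepest library, with 45688253 counts. Of the 3 muscle-rich wild-type tumors, replicate 5 was the highest and replicate 3 the lowest wild-type tumor in Fos, Fosb, Fosl2, Junb and Egr1. The heat shock and handling score is a mean log2 CPM of 14 genes that respond to stress and sample handling. It was 7.38 in Arf6-null replicate 5, the highest of its genotype, and 6.33 in wild-type replicate 5, the second lowest of its genotype. By summed CPM of these genes Arf6-null replicate 5 was at 5203, low in its genotype (5130 to 6236). Wild-type replicate 5 was at 4202 by that sum (4070 to 6420 over wild-type tumors).

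Correlations between members were computed over the 12 tumors after subtracting the genotype mean of log2 CPM, with permutation within genotype and Benjamini-Hochberg adjustment over the 45 pairs. Fosb and Junb were the most alike, with Pearson r = 0.898 (permutation p = 8e-05, adjusted p = 0.0036) and Spearman rho = 0.930 (permutation p = 7e-05, adjusted p = 0.00315). Without the 2 tumors farthest from the median of Fosb, r was 0.888. Among all tested genes Junb had the highest r with Fosb. Fosl2 and Junb had r = 0.767 (permutation p = 0.00217, adjusted p = 0.0251) and rho = 0.860 (permutation p = 0.00084, adjusted p = 0.0126), with r = 0.507 without the 2 farthest tumors. Fosb and Fosl2 had r = 0.844 (permutation p = 0.00062, adjusted p = 0.01395) and rho = 0.804 (permutation p = 0.00046, adjusted p = 0.01035), but r = 0.405 without the 2 farthest tumors, so that this relation rested largely on them. Fos and Fosb had r = 0.821 (permutation p = 0.00223, adjusted p = 0.0251) and rho = 0.748 (permutation p = 0.00888, adjusted p = 0.051), with r = 0.596 without the 2 farthest tumors.

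Egr1 followed the same pattern by rank. Junb and Egr1 had rho = 0.832 (permutation p = 0.00228, adjusted p = 0.02565) and r = 0.779 (permutation p = 0.00636, adjusted p = 0.0572), with r = 0.788 without the 2 farthest tumors. For Fosb and Egr1 rho was 0.825 (permutation p = 0.00319, adjusted p = 0.0287) and r was 0.711 (permutation p = 0.0119, adjusted p = 0.0574), with r = 0.687 without the 2 farthest. In all, 4 of the 45 pairs passed by Pearson r and 5 by Spearman rho, 41 had a positive r, and the median r was 0.33. Fosl1 was in no pair that passed. With Fos it had r = -0.04 (permutation p = 0.926, adjusted p = 0.926) and rho = -0.13 (permutation p = 0.702, adjusted p = 0.831), with r = -0.14 without the 2 farthest tumors. After leaving out Arf6-null replicate 5, an alternative added after seeing the data, r was 0.917 for Fosb and Junb, 0.663 for Fosb and Fosl2, 0.772 for Fos and Fosb and 0.645 for Fosl2 and Junb. Leaving out wild-type replicate 2, also added after seeing the data, changed the r of Jun. It rose from 0.245 to 0.732 with Egr1, from 0.152 to 0.695 with Fosl2 and from 0.341 to 0.646 with Fosb. The r of Jun fell from 0.628 to 0.055 with Maff and from 0.560 to 0.147 with Fosl1.

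**Figure D4:**
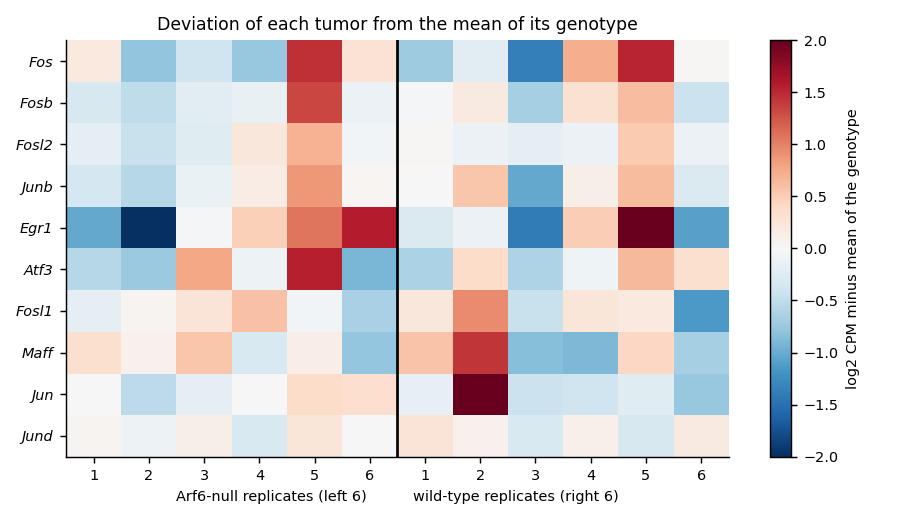
Log2 CPM minus the mean of the genotype (color, from -2 to 2) for the 10 genes (rows) in the 12 tumors, with Arf6-null replicates left of the black line and wild-type replicates right of it. Fos, Fosb, Fosl2, Junb and Atf3 are highest in replicate 5 of each genotype, while Fosl1, Maff and Jun are highest among wild-type tumors in replicate 2.

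For Fos, Fosl1 and Junb the 3 most alike genes over the 12 tumors were listed. Genotype-centred Pearson r is given here as a description without a test, over libraries of unequal depth. By this r, Junb was closest to Csrnp1 (0.922), itself an immediate early gene, then to Fosb (0.898) and to Irak2 (0.844). Irak2 encodes an interleukin-1 receptor-associated kinase. Without the 2 tumors farthest from the median of Junb, these r were 0.894, 0.898 and 0.661. Fos was closest to Auh (0.886), an enzyme of leucine breakdown, Zfp36l1 (0.861), which binds AU-rich elements of short-lived mRNAs, and Adck1 (0.856). Fosl1 was closest to Rnaseh2a (0.945), the catalytic subunit of ribonuclease H2, Anks1b (0.932) and Hccs (0.930), the enzyme that attaches heme to cytochrome c. The 3 sets had no gene in common, but with 3 genes in each set this says little about how far the members differ.

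The Jun level of wild-type replicate 2 did not stand alone in its region. At 1412 CPM it was 4.80 times the median of the other 11 tumors. Among genes with a median of at least 5 CPM, Jun lay in a run of 19 consecutive genes on chromosome 4 that were at least 2 times the median of the other 11 tumors in that tumor. The run reached from Caap1 to Ror1, from base 94500081 to 100444765 of GRCm38, a span of 5.945 Mb. All 19 genes were highest of the 12 tumors in wild-type replicate 2. The 18 genes beside Jun had ratios of 3.25 to 15.5 with a median of 8.83. Plaa, a ubiquitin-binding protein, was at 1184 CPM (12.7 times the median of the others), and Pgm1, phosphoglucomutase, at 1100 CPM (15.5 times). Jun itself thus had a lower ratio than most of its neighbours.

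The genes next to the run were at 1.41 (Tusc1) and 1.51 (Cachd1) times the median of the others. Over all 31 genes outside the run and within 10 Mb of Jun, the median ratio in that tumor was 1.10, and Cdkn2a, an engineered gene, was at 0.773. A ratio of 2 was reached by 4 of the 31, which were Dmrta1 (9.66), Plin2 (3.87), Lepr (3.67) and Acer2 (2.20). The median ratio of the same 18 genes was 0.896 to 1.05 in the other 11 tumors. The longest run of the same kind in any other tumor had 9 genes, and 3.64% of 11429 genes reached a ratio of 2 in wild-type replicate 2, within the range of 2.4% to 5.74% over the 12 tumors. DNA copies were not measured here, and the cause of the raised run was not tested. The 10 nearest genes of the other outlying values were near 1, with medians of 1.08 around Fosb in Arf6-null replicate 5 and 0.951 around Fosl2 in wild-type replicate 5.

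**Figure D5:**
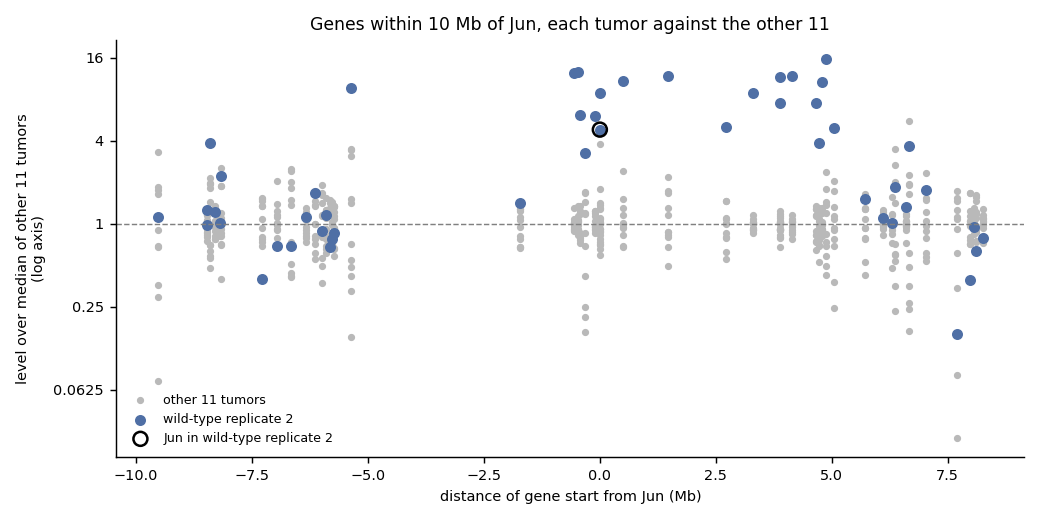
Level of each gene in a tumor over its median in the other 11 tumors (vertical, log axis) against the distance of the gene from Jun on chromosome 4 (horizontal, Mb), with wild-type replicate 2 in blue, Jun ringed and the other 11 tumors in grey. In wild-type replicate 2 the 19 genes of the run have ratios from 3.25 to 15.5, while the medians of the 18 neighbours of Jun are between 0.896 and 1.05 in the other tumors.

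Genes around AP-1 in the pathway were read from the same fit, by lists drawn up by role. No gene of the 6 lists was called by edgeR at an adjusted p under 0.05, beside 1.15% of all tested genes. The genotypes did not overlap in CPM in 2.36% of all tested genes, the share to set beside the genes without overlap named below. Over all tested genes 11% were higher and 12.4% lower at an unadjusted p under 0.05, and 7660 of 16225 fold changes were positive. DESeq2 called 4.8% of the genes with an adjusted p higher and 6.17% lower. Among 31 other leucine zipper partners the median log2 fold change was -0.05, with 4 higher and 5 lower at an unadjusted p under 0.05. Jdp2, which pairs with JUN proteins and represses AP-1, was at 7.59, 15.2 and 17.1 CPM in Arf6-null tumors, against 20.97, 24.1 and 33.2 CPM in wild-type tumors (lowest, median and highest). The genotypes did not overlap in Jdp2, and the log2 fold change was -0.82 with SE 0.19 (edgeR adjusted p = 0.0566). Bach2, a repressor of the MAF recognition elements, averaged 1.99 CPM in Arf6-null and 3.90 CPM in wild-type tumors (-0.97, edgeR adjusted p = 0.0629). DESeq2 called 1 of the partners higher and 5 lower.

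The 33 tested other immediate early genes had a median log2 fold change of 0.05, with 2 higher and 1 lower at an unadjusted p under 0.05. Klf4, a zinc finger factor, was at 94.0, 127.3 and 167.0 CPM in Arf6-null tumors, against 30.4, 67.2 and 86.1 CPM in wild-type tumors. The genotypes did not overlap in Klf4 (log2 fold change 0.98, SE 0.24, edgeR adjusted p = 0.0595). Plk3, a stress-responsive kinase, averaged 99.1 ± 26.5 CPM in Arf6-null and 54.1 ± 24.3 CPM in wild-type tumors (0.87, edgeR adjusted p = 0.0986). DESeq2 called 2 genes of the list higher and 0 lower.

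Among 32 kinases and factors upstream of AP-1 the median was -0.04, with 1 higher and 8 lower at an unadjusted p under 0.05. Mrtfa, an actin-controlled coactivator of SRF, averaged 34.0 ± 4.35 CPM in Arf6-null and 48.4 ± 6.86 CPM in wild-type tumors (log2 fold change -0.51, edgeR adjusted p = 0.056). Map3k7, the TAK1 kinase of cytokine signalling to JNK, averaged 72.0 ± 2.96 CPM in Arf6-null and 87.5 ± 4.81 CPM in wild-type tumors, without overlap (-0.28, edgeR adjusted p = 0.0564). DESeq2 called 0 genes of this list higher and 5 lower. The 18 ERK feedback and output genes had a median of 0.10, with 1 higher and 2 lower before adjustment. Epha4, a receptor kinase, averaged 1.42 CPM in Arf6-null and 4.14 CPM in wild-type tumors (-1.54, edgeR adjusted p = 0.159), and Etv5, an ERK-induced ETS factor, 63.8 and 77.1 CPM (-0.27, edgeR adjusted p = 0.169). DESeq2 called 0 of the 18.

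The 29 tested textbook AP-1 target genes had a median log2 fold change of 0.45, beside -0.03 over all tested genes. Of the 29 values 22 were positive, beside 7660 of 16225 over all tested genes. This list, like the members, was chosen with earlier results of these data known, so its median and counts are a description. At an unadjusted edgeR p under 0.05, 5 targets were higher and 0 lower, beside 11% and 12.4% of all tested genes. Ereg and Areg, which encode the EGF receptor ligands epiregulin and amphiregulin, had the smallest p. Ereg was at 90.6, 174.2 and 323.2 CPM in Arf6-null tumors, against 23.2, 49.6 and 155.8 CPM in wild-type tumors (log2 fold change 1.41, SE 0.45, edgeR adjusted p = 0.0986). Areg was at 18.1, 49.0 and 185.1 CPM in Arf6-null tumors, against 5.41, 20.4 and 40.2 CPM in wild-type tumors (1.84, SE 0.59, edgeR adjusted p = 0.101). Both genes overlapped between genotypes. DESeq2 called 2 of the targets higher and 0 lower. The 19 regulators and inhibitors of AP-1 had a median of 0.02, with 1 higher and 4 lower before adjustment, and DESeq2 called 1 higher and 2 lower. After Jdp2 the smallest p in that list was that of Itch, a ubiquitin ligase of JUN proteins, at 70.3 ± 7.24 CPM in Arf6-null and 89.8 ± 11.2 CPM in wild-type tumors (-0.35, edgeR adjusted p = 0.0752).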

How the data were processed

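Per the labels' protocols, a Direct-zol kit gave RNA of 12 melanoma tumors, which was made into TruSeq Stranded mRNA libraries. The submitters' processing notes name STAR 2.7.3a, featureCounts 1.6.3, DESeq2 1.26.0 and the build GRCm38 (mm10). The deposited table holds raw counts per Ensembl gene, whole numbers without normalization. The sources used here do not give the counter's strand setting or annotation. Symbols and exon lengths came from GENCODE M21.

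Genes were filtered with filterByExpr (minimum count 10), which left 16225 genes with 99.9% of the counts. Libraries held 21007954 to 45688253 counts and took TMM scaling. The genotype test was the two-sided quasi-likelihood test (glmQLFTest, robust) of edgeR 4.0.16 in R 4.3.3, with Benjamini-Hochberg adjustment over all tested genes (threshold 0.05). Fold changes set Arf6-null over wild type, SEs come from the F statistic, and 95% intervals are normal approximations from the SE, somewhat narrower than the F test allows. CPM used the scaled totals, and log2 CPM a prior count of 2. Correlations used 100000 permutations within genotype. Score means the mean log2 CPM of a list's tested genes.

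Alternatives were other scalings, DESeq2 1.42.0, limma-voom (limma 3.58.1), other filters, covariates, a threshold of 0.1, tumors left out, and for shares no division by length. Functions were tested on simulated data, where DESeq2 made more false calls than edgeR and limma-voom and was kept only as an alternative. Members, lists and tests were chosen with earlier results of these data known. All 10 members were named, with the 2 genes of smallest p in each list, since none was called, and the 3 genes most like Fos, Fosl1 and Junb (mean of at least 10 CPM). The run of genes around Jun was examined after its values were seen.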

Additional observations from a re-analysis of the deposited data

Results flagged for a closer look

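Each member was examined within each genotype for a tumor far from the other 5, on the log2(CPM + 1) scale, as were the library totals. Of 22 sets of 6 values 3 held such a tumor, where chance alone gives about 1 in 20 for independent sets. These sets share tumors and hold correlated members, so no excess can be read from this count.

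Fosb in Arf6-null replicate 5 was at 5.36, against 3.60 to 3.96 in the other Arf6-null tumors. Fosl2 in wild-type replicate 5 was at 7.63, against 6.92 to 7.12 in the other wild-type tumors. Jun in wild-type replicate 2 was at 10.46, against 7.72 to 8.30 in the other wild-type tumors, and the genes around Jun on chromosome 4 were raised in the same tumor. What sets these tumors apart was not tested.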

How the results depend on the processing

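Over all genes edgeR called 95 higher and 91 lower in Arf6-null tumors. The counts moved by more than 1.5 times with DESeq2 (969 and 1246), limma-voom (483 and 448), the Y-linked covariate (12 and 17), the muscle score covariate (5 and 13), the heat shock score covariate (39 and 46), the 3 muscle-rich wild-type tumors left out (14 and 21) and a threshold of 0.1 (641 and 718). Lower calls also moved without a filter (55) and with the filter of 10 CPM (59). With upper-quartile scaling 87 genes were called higher and 123 lower. Leaving out 1 tumor gave 13 to 388 higher and 9 to 378 lower calls, with the most without wild-type replicate 2. Members called higher were 0, but 1 with DESeq2 and 0 to 1 when 1 tumor was left out. Members called lower were 0 throughout, in a range of 0 to 0.

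The Jund fold change turned to -0.011 with upper-quartile scaling, -0.028 with the Y-linked covariate, -0.19 with the muscle score covariate and -0.11 without the 3 muscle-rich tumors, and ran from -0.020 to 0.097 when 1 tumor was left out. Leaving out 1 tumor gave -0.76 to 0.15 for Jun and -0.15 to 1.18 for Egr1. The cause was not tested. Jun had no adjusted p by DESeq2, and Atf3 had no value at 10 CPM. The sign of the other 7 members was kept in every setting tried. The lowest count of any member in a tumor was 77, for Atf3, and counting error is largest there.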
